A study of Homo sapiens with 6 samples.

Results

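The genes examined here are 33 immediate early genes and feedback regulators of the kinase ERK, chosen by name. Immediate early genes are transcribed within minutes of a stimulus without new protein synthesis. Members were the probe sets whose only listed symbol is 1 of these genes. That gave 32 genes with 97 probe sets, of 18239 genes and 49386 probe sets in all. EGR2 had no such probe set and was not analysed here.

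RNA came from LNCaP, an established androgen-responsive line of human prostate adenocarcinoma cells, and was measured on the Affymetrix Human Genome U219 array. Of the 6 arrays, 3 are of control cells, called untreated in the sample titles and saline-treated in the protocol, and 3 are of cells kept for 24 h with 40 µM urolithin A, a compound that gut bacteria form from ellagic acid. All cells grew in F12 medium with fetal bovine serum, so serum factors were present in both groups, and the labels name no solvent for the compound. The study concerns 1 cell line, 1 dose and 1 time, long after the window in which immediate early genes usually peak. Whether same-numbered arrays share a culture or a day is not given, so p-values measure the spread between arrays, which may be technical.

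Growth factor receptors signal through RAS, RAF and MEK to ERK, which phosphorylates transcription factors already bound near immediate early genes. The products include the AP-1 proteins of the FOS and JUN families and the zinc finger factors of the EGR and KLF families. Other products form the brakes. The dual-specificity phosphatases (DUSPs) dephosphorylate ERK, JNK or p38, Sprouty and Spred proteins restrain signalling between receptor and RAF, and ZFP36 proteins speed the decay of AU-rich mRNAs. In prostate carcinoma EGR1 is known to be raised and SPRY1 to be lowered.

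The promoters of FOS, EGR1 and DUSP1 are shown because these textbook serum-responsive genes behaved differently between arrays, as described below. They are the 250 bases before the RefSeq transcription start (build GRCh38.p14), at chr14:75278578-75278827 on the plus strand for FOS, chr5:138465229-138465478 on the plus strand for EGR1 and chr5:172771196-172771445 on the minus strand for DUSP1. Capitals mark every match, on either strand, to the CArG box that serum response factor binds, to the cyclic AMP response element TGACGTCA or to its core TGACGT. The AP-1 site TGANTCA was searched too.
FOS: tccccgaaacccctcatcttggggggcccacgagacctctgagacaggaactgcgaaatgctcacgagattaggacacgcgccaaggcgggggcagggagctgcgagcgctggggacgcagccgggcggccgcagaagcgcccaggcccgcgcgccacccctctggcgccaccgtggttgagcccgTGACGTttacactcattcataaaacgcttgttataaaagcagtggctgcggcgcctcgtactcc
EGR1: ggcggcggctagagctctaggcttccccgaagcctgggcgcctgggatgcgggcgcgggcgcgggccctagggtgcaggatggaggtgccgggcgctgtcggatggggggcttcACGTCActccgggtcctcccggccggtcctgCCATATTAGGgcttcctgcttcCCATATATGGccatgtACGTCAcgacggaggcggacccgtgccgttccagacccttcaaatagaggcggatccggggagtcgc
DUSP1: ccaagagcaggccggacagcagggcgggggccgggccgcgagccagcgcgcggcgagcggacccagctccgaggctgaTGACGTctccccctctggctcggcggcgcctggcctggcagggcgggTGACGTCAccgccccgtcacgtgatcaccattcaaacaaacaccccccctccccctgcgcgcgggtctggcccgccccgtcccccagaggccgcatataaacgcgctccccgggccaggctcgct

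EGR1 held 2 CArG boxes in this window, and no other of the 26 member genes with a promoter entry held any, where 1.16% of 35116 RefSeq starts hold that motif. The full cyclic AMP element was in 4 of the 26 genes, DUSP1, DUSP8, JUND and ZFP36L1 (1.65% of all starts). Its core, which lies within the full element, was in 9 of the 26, FOS, FOSB, FOSL2, EGR1 and EGR4 among them (7.1% of all starts). The AP-1 site was in 0 of the 26 (6.57% of all starts). The shares are counted by start and not by gene. Of the 33 starts of the 26 genes, 1 held a CArG box, 4 the full element, 9 its core and 0 the AP-1 site. These are matches of letters in a short window, and say nothing of binding. Sites farther from the start were not searched, in FOS or any other gene, so a motif absent here may lie outside the window.

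After urolithin A, 2 of 32 members fell and 0 rose in limma's moderated test, at an adjusted p under 0.05 over all genes. The feedback inhibitor gene SPRY1 fell 1.54-fold and the phosphatase gene DUSP2 1.34-fold. For comparison, 5.31% of all genes fell and 4.85% rose at that threshold. At an unadjusted p under 0.05, 3 of 32 members were higher and 5 lower, where 12.5% and 11.5% of all genes were. The median log2 change was 0.026 over the members and 0.010 over all genes, with 19 members above 0 and 13 below. In 25 members the 95% interval of the log2 change lay within 0.5 either side of 0, and the others were FOS, JUN, DUSP2, DUSP4, DUSP10, SPRY1 and KLF4. The 3 urolithin A arrays lay wholly above the controls in 4 members and wholly below in 6, where the same holds for 15.6% and 13.7% of all genes. Every value below is a log2 value with the control median of its probe set subtracted, so it shows differences between arrays and not levels.

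**Figure D1:**
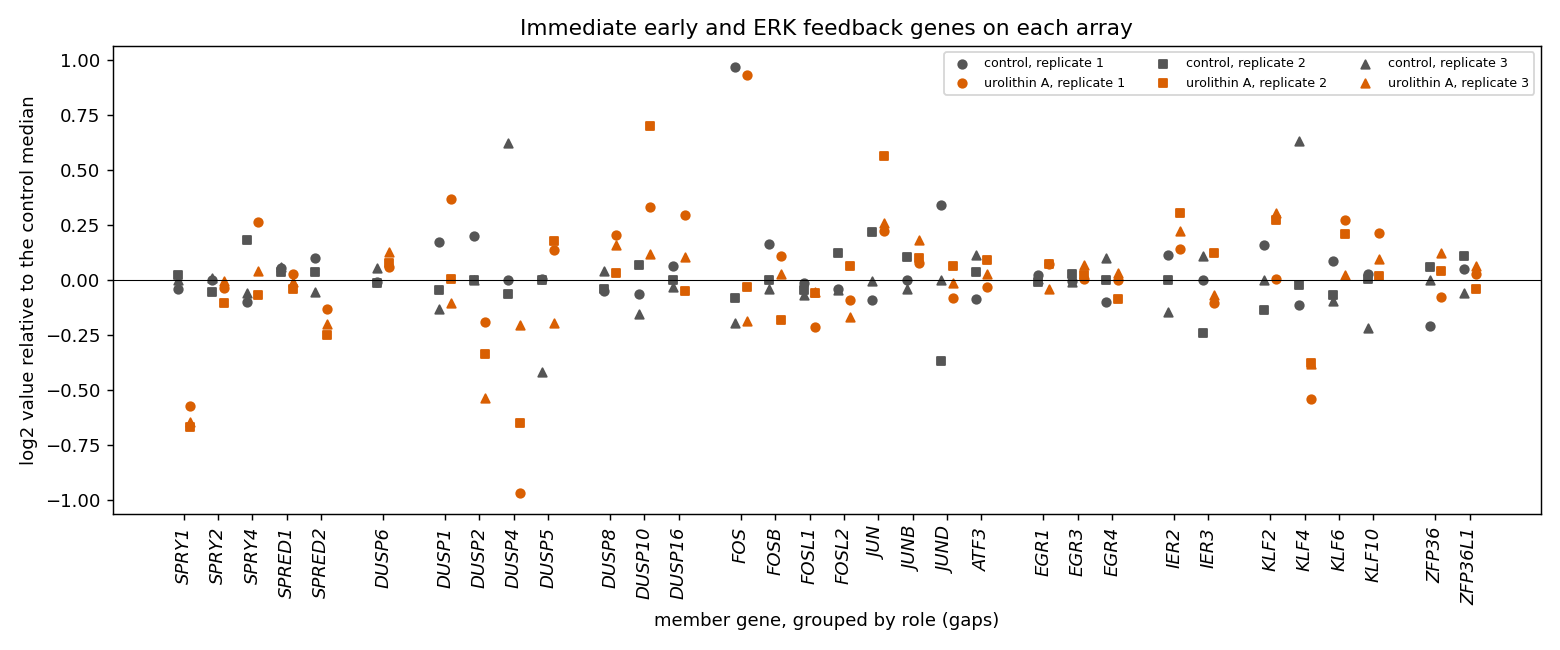
Log2 value of each of the 32 member genes (y axis, relative to the control median) on each of the 6 arrays, grouped by role along the x axis, with symbols for the replicate number. The urolithin A points of SPRY1 lie clear of the controls, while both replicate 1 arrays of FOS stand at 0.97 and 0.93, above the other 4 arrays.

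**Figure D2:**
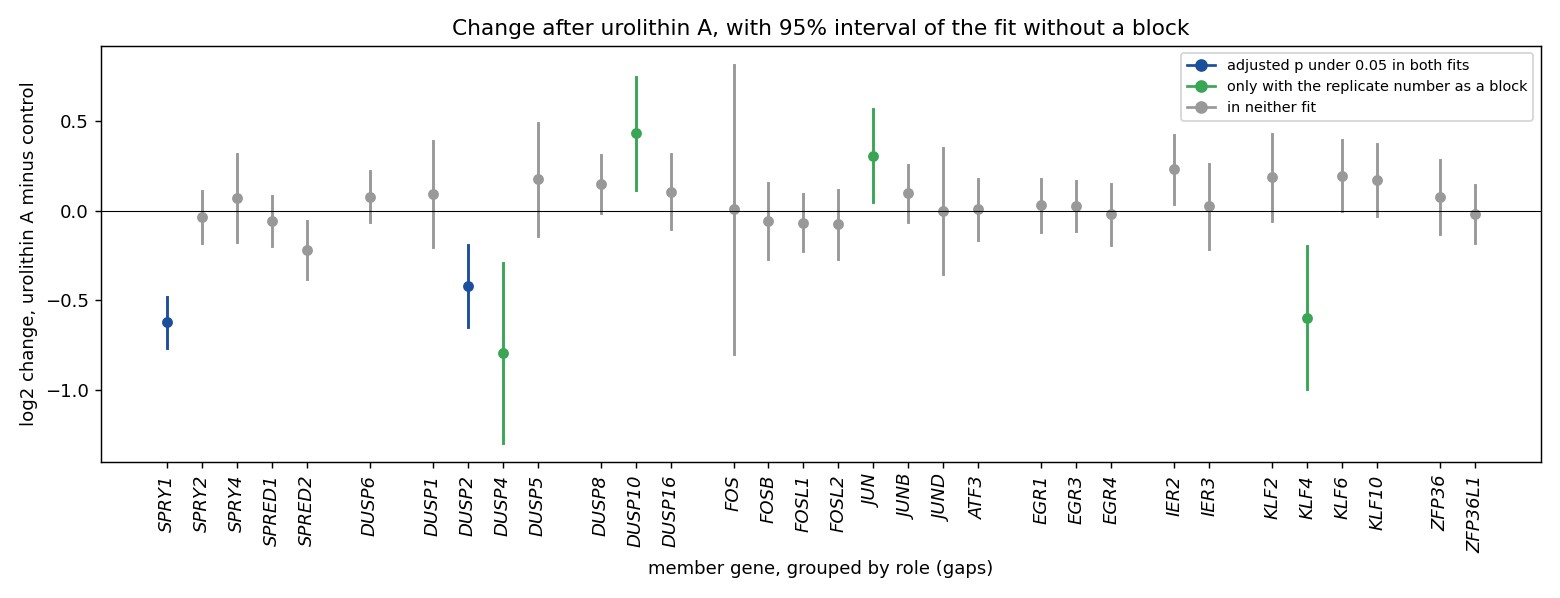
Log2 change of each member (y axis, urolithin A minus control, n = 3 arrays each) with its 95% interval; colours show whether the adjusted p was under 0.05 in both fits, only with the replicate number as a block, or in neither. SPRY1 and DUSP2 passed in both fits, and FOS had the interval from -0.80 to 0.81.

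Among Sprouty and Spred genes, which act at the top of the cascade, SPRY1 was the member that moved. The controls, replicates 1 to 3, read -0.043, 0.020 and 0, and the urolithin A arrays -0.58, -0.67 and -0.65. The groups were far apart and tight within themselves. The log2 change was -0.62 (SE 0.063, adjusted p = 0.000963), against a median of -0.44 over all genes that fell, and 233 genes fell further. All 3 probe sets of SPRY1 fell on their own, with log2 changes of -0.74, -0.69 and -0.44. The array's maker names those at -0.74 and -0.69 as sharing sequence with other transcripts. The 1 at -0.44 is not so named, and its adjusted p over single probe sets was 0.0179. Without each array in turn the change of SPRY1 ranged from -0.65 to -0.60 and its adjusted p reached at most 0.00577.

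The relatives of SPRY1 did not pass. SPRED2, which blocks the activation of RAF, had control arrays at 0.099, 0.034 and -0.058 and urolithin A arrays at -0.13, -0.25 and -0.20. These ranges did not overlap, but its log2 change of -0.22 (SE 0.071) had an adjusted p of 0.0922. Of its 3 probe sets, 1 fell on its own (log2 change -0.41, adjusted p = 0.0365), while another had a change of -0.0022. SPRED1, its paralogue, had a change of -0.058 (adjusted p = 0.636), with ranges that just failed to meet. SPRY2 was at -0.034 (95% interval -0.18 to 0.11), and SPRY4 at 0.071 (-0.17 to 0.31), both with overlapping arrays. Whether SPRY1 differed from SPRY2 or SPRY4 in its response was not tested.

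The phosphatase genes had no shared direction. DUSP6, the cytoplasmic phosphatase specific for ERK and a common readout of ERK activity, had controls at -0.013, -0.017 and 0.054 and urolithin A arrays at 0.058, 0.076 and 0.12. Every urolithin A array was above every control array, by a small margin. Its log2 change of 0.078 (95% interval -0.064 to 0.22) did not pass (adjusted p = 0.517), and of its 4 probe sets 3 had changes from 0.14 to 0.20 and the remaining 1 had -0.16.

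Among the inducible nuclear phosphatases, DUSP2 acts on ERK and p38. Its 1 probe set read 0.20, 0 and -0.0032 in controls and -0.19, -0.34 and -0.54 with urolithin A. The array's maker names that probe set as sharing sequence with other transcripts, so DUSP2 is not measured without such probe sets. The groups did not overlap, and the log2 change was -0.42 (SE 0.10, adjusted p = 0.034). That call was not stable: it held in 1 of the 6 fits that leave out an array, the fit without urolithin A replicate 1 (adjusted p = 0.0302), and ended in the other 5, at adjusted p up to 0.111. It also ended without moderation of the variances (adjusted p = 0.168) and in the test over single probe sets (adjusted p = 0.0551).

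DUSP4, another nuclear phosphatase for ERK and JNK, had a larger mean difference and more scatter. Its probe set read 0, -0.066 and 0.62 in the controls, in order of number, and -0.97, -0.65 and -0.21 in the urolithin A replicates. Replicate 3 was the highest array of each group. The log2 change of -0.79 (SE 0.22, 1.73-fold) missed the threshold at adjusted p = 0.0577. Without urolithin A replicate 3 the change was -0.995 and passed (adjusted p = 0.0295), and without control replicate 3 it was -0.58 (adjusted p = 0.129). The 18S ribosomal RNA control probe sets were also unusual on both replicate 3 arrays, at -0.45 in the control and -0.48 with urolithin A, against -0.22 in urolithin A replicate 2 and 0.015 to 0.047 on the other 3 arrays. The part of this in the values of DUSP4 was not tested.

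DUSP1, the first inducible phosphatase of p38, JNK and ERK, read 0.17, -0.047 and -0.13 in controls and 0.37, 0.0018 and -0.10 with urolithin A. Replicate 1 was highest in each group, and the groups overlapped. Its change of 0.092 (SE 0.13, adjusted p = 0.741) did not pass, and its 4 probe sets had changes from -0.32 to 0.30. DUSP5, a nuclear phosphatase for ERK, was at 0.18 (SE 0.14, adjusted p = 0.511), with replicate 3 lowest in each group, at -0.42 and -0.20.

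The phosphatases directed at JNK and p38 all had positive changes that did not pass. DUSP10 (MKP-5) read -0.064, 0.066 and -0.16 in controls and 0.33, 0.70 and 0.11 with urolithin A, with no overlap. Its log2 change was 0.43 (SE 0.14, adjusted p = 0.0923), and 1 of its 4 probe sets rose on its own (0.73, adjusted p = 0.0444), the other 3 having changes of 0.31 to 0.35. Without urolithin A replicate 3 the change of 0.57 passed (adjusted p = 0.0356), while without urolithin A replicate 2 it was 0.27 (adjusted p = 0.175). DUSP8 was at 0.15 (SE 0.072, adjusted p = 0.255) and DUSP16 at 0.11 (SE 0.092, adjusted p = 0.557), both with overlapping groups.

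None of the 8 AP-1 subunit genes passed, and 1 of them, JUN, had an unadjusted p under 0.05. FOS, the prototype immediate early gene, read 0.97, -0.084 and -0.20 in the controls, in order of number, and 0.93, -0.036 and -0.19 in the urolithin A replicates. Replicate 1 stood far above the other arrays in each group, and the groups overlapped almost fully. The log2 change was 0.0081 (SE 0.35, 95% interval -0.80 to 0.81, adjusted p = 0.994), an interval that leaves room for a sizeable change in either direction. The high replicate 1 rested mainly on 2 of the 4 probe sets of FOS, which read 1.67 and 1.5 in control replicate 1 and 2.45 and 1.31 in urolithin A replicate 1. The other 2 read 0.41 and 0.28 in that control array and -0.31 and 0.27 in that urolithin A array.

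JUN, the main partner of FOS, read -0.091, 0.22 and -0.0088 in controls and 0.22, 0.56 and 0.26 with urolithin A. Each urolithin A array was above each control array, narrowly so for control replicate 2. The log2 change was 0.31 (SE 0.11, 1.24-fold, adjusted p = 0.135). It came unevenly from the probe sets, of which 1 rose (0.76, adjusted p = 0.0366) while the other 3 had changes of 0.093 to 0.22. The probe set that rose is named by the array's maker as sharing sequence with other transcripts, and so are all but 1 of the others. Without such probe sets JUN rested on that 1, and its change was 0.16 (adjusted p = 0.627). With all probe sets kept but without urolithin A replicate 2, the change of JUN was 0.20 (adjusted p = 0.322). FOSB, FOSL1 and FOSL2, the other FOS family genes, had changes of -0.058, -0.067 and -0.077, and JUNB was at 0.098. JUND, usually the constitutive family member, was at -0.0021 with controls from -0.37 to 0.34. ATF3, which pairs with JUN and also responds to stress, was at 0.0073 (95% interval -0.16 to 0.18), with 7 probe sets between -0.16 and 0.19.

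The EGR genes, which respond to ERK through serum response factor, had small differences between arrays. EGR1 read 0.019, -0.0090 and 0.0032 in controls and 0.072, 0.070 and -0.042 with urolithin A. Its replicate 1 arrays were not raised as those of FOS were, and its log2 change was 0.029 (95% interval -0.12 to 0.18, adjusted p = 0.845). This flat mean covers 6 probe sets with changes between -0.37 and 0.31, none of which passed alone. EGR3 had a change of 0.027 and EGR4 of -0.019, with overlapping arrays. IER2, a nuclear regulator induced by serum, read 0.11, 0 and -0.15 in controls and 0.14, 0.30 and 0.22 with urolithin A, just without overlap, and did not pass (log2 change 0.23, SE 0.084, adjusted p = 0.131). IER3, which bears on ERK and survival signalling, was at 0.026 (SE 0.10).

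Of the KLF genes, which encode zinc finger factors of cell growth and differentiation, KLF4 had the largest difference. It read -0.11, -0.026 and 0.63 in the controls, in order of number, and -0.54, -0.38 and -0.39 in the urolithin A replicates. Control replicate 3 stood above the other controls, as it did for DUSP4, while urolithin A replicate 3, whose 18S signal was as low, lay with the other urolithin A arrays. Any relation of the 18S signal to the values of KLF4 was not tested. The groups did not overlap. The log2 change of -0.60 (SE 0.17, 1.51-fold) missed the threshold (adjusted p = 0.069). Without control replicate 3 it was smaller, -0.36, and passed (adjusted p = 0.0479), and 1 of its 2 probe sets fell on its own (-0.79, adjusted p = 0.0262). KLF2, KLF6 and KLF10, the last induced early by TGF-beta, had changes of 0.19, 0.20 and 0.17, with adjusted p of 0.341, 0.216 and 0.29. The 2 probe sets of KLF2 had opposite signs, -0.16 and 0.53. ZFP36 and ZFP36L1, the mRNA decay factors, were at 0.077 and -0.017.

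Over the probe sets of all members, 2 of 97 rose and 5 fell when each was tested alone, where 3.99% of all probe sets rose and 4.38% fell. Of the 23 members with several probe sets, 14 had changes of both signs among them. The mean of such a gene covers unequal changes of its probe sets.

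**Figure D3:**
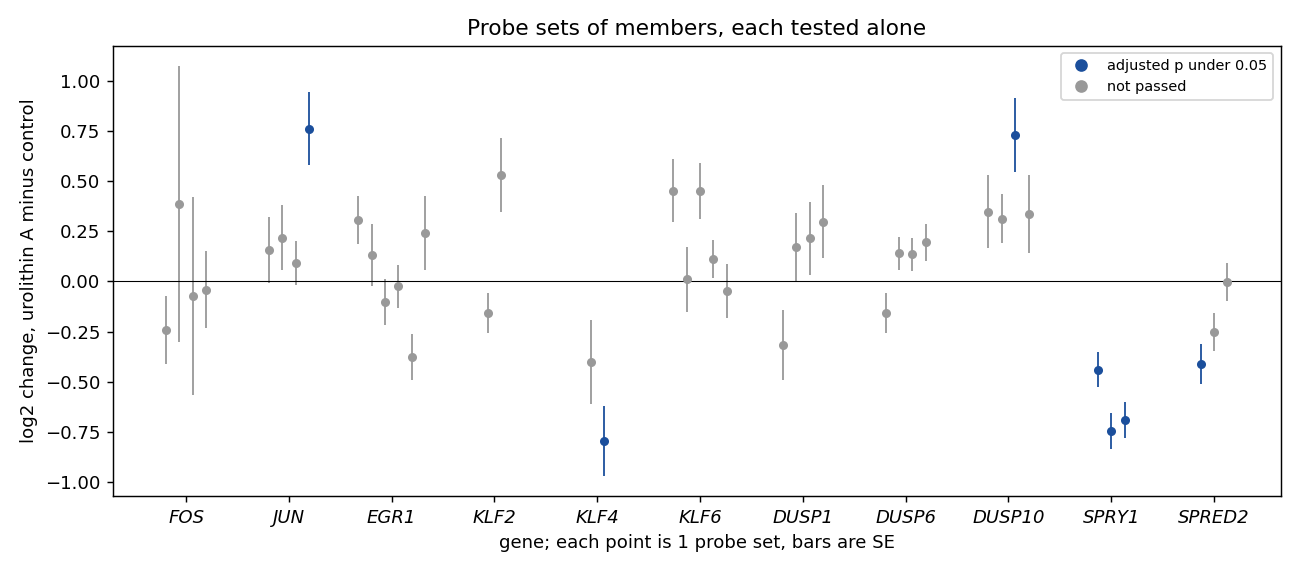
Log2 change (y axis, urolithin A minus control) of each probe set of 11 members with several probe sets; bars are the SE of limma's fit (n = 3 arrays each), and blue marks an adjusted p under 0.05 over all probe sets. The 3 probe sets of SPRY1 lie between -0.74 and -0.44, while those of EGR1 and KLF2 lie on both sides of 0.

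Same-numbered arrays were then compared, because FOS differed by replicate number. The urolithin A minus control difference of FOS was -0.035, 0.048 and 0.011 for numbers 1, 2 and 3, although the arrays of a group spanned 1.16 and 1.12. The 3 differences of DUSP4 were -0.97, -0.58 and -0.83, those of JUN 0.31, 0.34 and 0.27, and those of DUSP10 0.39, 0.63 and 0.27. KLF4 had -0.43, -0.35 and -1.01, and SPRY1 -0.53, -0.69 and -0.65. In each of these except FOS the 3 differences had 1 sign. All 3 differences were positive in 9 members and negative in 8, where the shares over all genes were 24.8% and 21.4%. DUSP1, DUSP5, KLF6 and KLF10 were among the 9, with groups that overlap.

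With the replicate number as a block in the fit, 2 of 32 members rose and 4 fell, where 4.72% of all genes rose and 5.5% fell. SPRY1 (adjusted p = 0.00465) and DUSP2 (adjusted p = 0.0177) passed again. Passing only with the block were JUN (adjusted p = 0.0329) and DUSP10 (adjusted p = 0.029), which were higher, and DUSP4 (adjusted p = 0.00494) and KLF4 (adjusted p = 0.0391), which were lower. FOS stayed at adjusted p = 0.96, with an SE of 0.065 where the fit without the block gave 0.35. The labels do not say that a number marks a shared culture or day. Over all genes, deviations from the group mean correlated between same-numbered arrays at r = 0.078, 0.023 and 0.20 for numbers 1, 2 and 3, so the pairing is not established and the fit without the block is the reference.

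Over the 32 members the same correlations, given as a description across genes that share the arrays, were 0.69, 0.22 and 0.73. Without FOS they were 0.38, 0.060 and 0.64 over 31 members, and without FOS and DUSP4 they were 0.27, 0.029 and 0.46 over 30. The 49 further early response genes described below had 0.58, 0.16 and 0.52, and the 37 upstream genes 0.35, 0.14 and 0.52, so values above those of all genes were not particular to the members. In 8 members, FOS, FOSL2, JUN, DUSP1, DUSP2, DUSP10, SPRY2 and KLF6, the 3 numbers stood in the same order in both groups, where 19.5% of all genes do. The 18S control probe sets fell from number 1 to number 3 in both groups, the order of FOS, DUSP1, DUSP2 and KLF6. FOSL2, JUN, DUSP10 and SPRY2 had other orders. Any relation of the 18S signal to these values was not tested. FOS had a within-group SD of 0.62, above 99.9% of all genes, DUSP4 0.38 (99.6%) and KLF4 0.29 (98.4%). At the other end, SPRED1, EGR3, DUSP6 and SPRY1 had SDs of 0.026 to 0.042. These are SDs of means over 5, 4, 4 and 3 probe sets, against 4 for FOS, 1 for DUSP4 and 2 for KLF4. The part of averaging in this ranking was not tested. The median SD was 0.12 over the members and 0.10 over all genes.

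**Figure D4:**
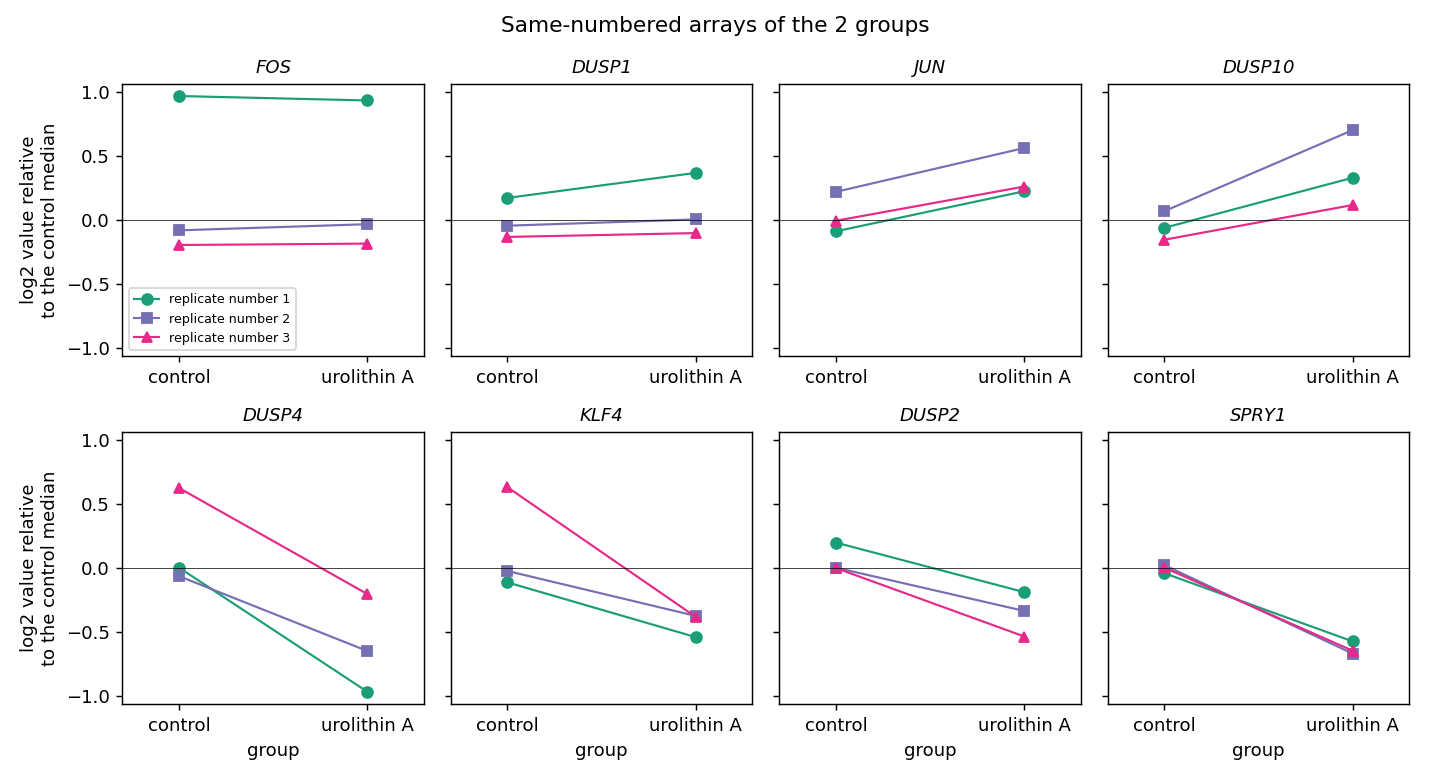
Log2 value (y axis, relative to the control median) of 8 members in control and urolithin A arrays (x axis), with lines joining arrays of the same replicate number. The lines of FOS are nearly flat at different heights, those of JUN and DUSP10 all go up, and those of DUSP4, KLF4, DUSP2 and SPRY1 all go down.

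Of 37 measured receptors, ligands, adaptors, kinases and ERK-responsive transcription factors, 2 rose and 2 fell, 5.41% each, near the shares over all genes. FGFR3, a growth factor receptor gene, was 1.83-fold lower (adjusted p = 0.000749), although 1 of its 2 probe sets passed alone. ELK4, a partner of serum response factor that ERK phosphorylates, fell 1.41-fold (adjusted p = 0.0147). Of its 4 probe sets, 2 fell on their own, and the changes ran from -0.98 to 0.18. SOS2, which loads RAS with GTP, rose 1.41-fold (adjusted p = 0.0112). HRAS rose 1.22-fold (adjusted p = 0.0458), a call that ended in each of the 6 fits that leave out an array, at adjusted p up to 0.141. SRF, EGFR and MAPK3, which codes for ERK1, did not pass, at -0.031, -0.16 and 0.032 on the log2 scale. Of the 8 probe sets of EGFR, 2 fell on their own, and the changes ran from -0.67 to 0.24.

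Of 49 further early response and ERK output genes, 2 rose (4.08%) and 7 fell (14.3%), against 4.85% and 5.31% of all genes, and their median log2 change was 0.00063. This list was chosen with earlier results of these data known. CEBPD, an early induced factor of acute responses, was 2.13-fold lower (adjusted p = 0.00394), and all 5 of its probe sets fell. ERRFI1, a feedback inhibitor of the EGF receptor, fell 1.64-fold (adjusted p = 0.0031), measured by 1 probe set. The ETS factor gene ETV1 fell 1.63-fold (adjusted p = 0.0143) with 6 of 8 probe sets, KLF5 1.4-fold (adjusted p = 0.0075) and NFKBIA, the inhibitor of NF-kappaB, 1.34-fold (adjusted p = 0.0153). IER5, a relative of IER2, rose 1.5-fold (adjusted p = 0.00462). The usual ERK output genes ETV4, ETV5, PHLDA1 and CCND1 had log2 changes of 0.048, -0.089, 0.042 and 0.21, and none passed. The call of ETV1 ended without urolithin A replicate 2 (adjusted p = 0.0524), and that of NFKBIA without urolithin A replicate 1 or urolithin A replicate 2 (largest adjusted p 0.0556). BTG1 (1.21-fold, adjusted p = 0.0312) and HES1 (1.26-fold, adjusted p = 0.0411) also fell. The call of BTG1 ended in each of the 6 fits that leave out an array, at adjusted p up to 0.103. That of HES1 held only without urolithin A replicate 3, and its 5 probe sets had changes from -1.06 to 0.079. Without urolithin A replicate 1, or without urolithin A replicate 2, 4 of these 49 genes fell and 1 rose, and 1 rose also without control replicate 2 or without control replicate 3.

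In that list 18 of 49 genes (36.7%) had the 3 numbers in the same order in both groups, against 25% of the members and 19.5% of all genes. ID1 and ID3, chosen here after their values were seen, encode inhibitors of basic helix-loop-helix factors. Like FOS, they had replicate 1 highest in each group. ID1 read 0.32, -0.0068 and -0.041 in controls and 0.60, 0.064 and -0.20 with urolithin A. ID3 read 0.30, 0 and -0.24 in controls and 0.56, -0.043 and -0.19 with urolithin A. ID2, in the same list, also had replicate 1 highest in each group, at 0.080, 0 and -0.37 in controls and 0.39, -0.41 and -0.71 with urolithin A. The controls of ID3 were graded, where replicates 2 and 3 of FOS lay close together.

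Marker lists could not test the identity of the cells, because the deposited values hold no levels. Of 19 measured markers of prostate, stromal, endothelial and immune cells, KLK3 was lower (log2 change -0.98) and FOLH1 higher (0.31), and the other 17 did not pass. The call of KLK3 held without each array in turn, while that of FOLH1 ended in 4 of these 6 fits, those without control replicate 2 or control replicate 3 or urolithin A replicate 1 or urolithin A replicate 3 (largest adjusted p 0.0707). Their part in the results above was not tested.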

How the data were processed

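The deposited log2 values are RMA output, according to the submitters' processing notes. The control median is 0 in every probe set, so it had been subtracted; levels are lost. No source gives the base of the logarithm, which was taken as 2. Genome build and array batches are not given in the sources used here. Probe sets were named through the platform annotation. Those with 1 symbol (45253, control probe sets left out) were averaged per gene. A linear model of group alone was run per gene (two-sided; limma 3.58.1, R 4.3.3, with eBayes moderation), with Benjamini-Hochberg adjustment over 18239 genes and a threshold of 0.05. The code was tested on simulated data. The members, the 2 further gene lists and the markers were chosen with earlier results of these data known. All measured members are named. From the further lists come up to 6 called genes with the largest changes, and BTG1 and HES1, named for their unstable calls. Genes given as uncalled examples were chosen after their values were seen. Alternatives were the replicate block, the probe set summary, shared-sequence probe sets, centring, priors, threshold and leaving out arrays.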

Additional observations from a re-analysis of the deposited data

How the results depend on the processing

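SPRY1 fell in the reference fit and in every alternative fit run, with log2 changes from -0.74 to -0.44. The replicate block gave 2 members higher and 4 lower, against 0 and 2. Members lower numbered 1 without probe sets of shared sequence (24 members left), without moderation and at an adjusted p under 0.01, and 1 to 2 without an array; members higher numbered 0 to 1 there. The median change of the members was -0.0060 without shared-sequence probe sets. Upstream genes higher numbered 3 with the median of probe sets and 1 with the block, without shared sequence or with median centring. They also numbered 1 with a trended and robust prior and without any 1 array, and 0 without moderation or at 0.01. Upstream genes lower numbered 1 in these last 2 settings, and 3 with the block and without control replicate 2. Early response genes higher numbered 3 with the block and 1 without shared sequence and at 0.01. They numbered 0 without moderation and 1 to 2 without an array. Those lower numbered 9 with the block, 6 with probe set medians and 5 without shared sequence or with a trended and robust prior. Early response genes lower numbered 0 without moderation, 3 at 0.01 and 4 to 6 without an array. The cause of these shifts was not tested. Signs turned for members that passed in no such fit. With the median of probe sets FOS was -0.053, SPRY4 -0.034 and ZFP36L1 0.016. KLF2 was -0.16 without shared sequence. Without an array FOS ranged from -0.34 to 0.38, FOSB -0.12 to 0.025, JUND -0.18 to 0.17, EGR4 -0.069 to 0.030, IER3 -0.073 to 0.10, ATF3 -0.047 to 0.055, DUSP1 -0.047 to 0.19, SPRY4 -0.022 to 0.16, ZFP36 -0.0034 to 0.13 and ZFP36L1 -0.063 to 0.021. The probe set with the smallest p gave FOS -0.24, EGR1 -0.37, EGR3 -0.063, DUSP1 -0.32 and ZFP36L1 0.13. The number of arrays and the spread between them limit precision. In the fit without the block, FOS could have changed by up to 0.81 on the log2 scale within its interval. Its SE was 0.35 in that fit and 0.065 with the replicate block, which assumes a pairing that is not established.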
